A study of Rattus norvegicus with 6 samples.

Results

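The 95 entries described here are the genes for the proteins of the cytosolic ribosome, out of 26126 entries in the count table. They were taken by name: symbols that start with Rpl or Rps and a digit, with Rplp0, Rplp1, Rplp2 and Rpsa, leaving out the Rps6k kinases and names that hold -ps. Of the 95, 29 are proteins of the small (40S) subunit and 46 of the large (60S) subunit, and these 75 are called the core genes below. The remaining 20 are 8 paralogs, 11 numbered copies such as Rpl35al1, and Rps19bp1, which encodes a protein that binds RPS19 and is not itself a ribosomal protein. Rps13, Rps26 and the paralog Rpl26l1 are not analysed here.

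The RNA came from H9c2 cells, a myoblast line from embryonic rat heart, in 6 libraries. There were 3 libraries of cells with an adenovirus labelled adPERK and 3 of cells with a control adenovirus. All 6 carry the treatment label "Stimulated Ischemia Reperfusion", so no library shows the cells without it. Per the labels' protocols, cells in an ischemia buffer of pH 6.2 stood under a 30 min flush of 95% nitrogen and 5% carbon dioxide and were then kept sealed for 1.5 to 3.5 h. PERK is a stress sensor kinase of the endoplasmic reticulum that phosphorylates eIF2 alpha and so lowers translation initiation, and the comparison asks how expression differs when it is delivered by the virus. H9c2 is a single cell line. Separate cultures are not named for the replicates, so a p-value speaks of the spread among these libraries, possibly a technical one.

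Total counts were 89798433 to 119087414 in the adPERK libraries and 77923398 to 111052659 in the control libraries. Eif2ak3, the gene for PERK, stood at 26.5, 26.5 and 26.0 CPM (counts scaled to a common library total by TMM) in adPERK replicates 1 to 3, against 26.4, 26.9 and 24.0 CPM in control replicates 1 to 3. Its log2 fold change was 0.03 (edgeR adjusted p = 0.887), so it does not check the labels, and directions below rest on the labels alone. Of the muscle and mesenchymal markers, Tnnt2 and Myod1 were above 10 CPM in every library, Vim was at 1883 ± 49.2 CPM in adPERK and 1653 ± 33.01 CPM in control libraries (SD, n = 3 each, edgeR adjusted p = 0.0677), and Des and Actc1 were at 4.78 to 5.98 CPM. Myog, a myogenic transcription factor, fell to 390, 408 and 401 CPM in adPERK replicates 1 to 3, against 474, 491 and 493 CPM in control replicates 1 to 3 (log2 fold change -0.28, edgeR adjusted p = 0.0137), and its part in the results below was not tested. The blood, endothelial and epithelial markers Ptprc, Cdh5, Epcam and Cdh1 had at most 0.282 CPM in any library, and Cd68 at most 0.411 CPM. The endothelial gene Tek was at 0.792 ± 0.134 CPM in adPERK and 1.398 ± 0.145 CPM in control libraries (edgeR adjusted p = 0.225). Of the genes of mature cardiomyocytes, Nppa was at 0 in all 6 libraries, Myh6 and Ryr2 were above 0 in control replicate 3 alone, and Tnni3 and Actn2 had at most 1.68 CPM. Control replicate 3 also had 19287 entries above 0, against 15377 to 16685 in the other 5 libraries. Low counts were stepped: entries with exactly 12 counts were 1.88 to 2.28 times as many as the mean number with 9 or 15, so the fragments behind a count may be fewer than the count.

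Ribosomal proteins are made in nearly equal numbers, because each ribosome holds one copy of most of them, and a growing cell spends a large part of its transcription and translation on them. Their mRNAs begin with a C followed by a run of pyrimidines, the 5′ terminal oligopyrimidine (TOP) motif, through which mTORC1 and LARP1 set how much of the mRNA is translated. In mammalian cells with mTORC1 inactive these mRNAs leave the polysomes while LARP1 keeps them from decay, so their amount need not follow their translation.

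The starts of 8 core genes are shown because they include the genes the results turn on and the pyrimidine run that marks the family. Each line gives 15 bases before and 15 bases from the RefSeq start of the gene (GRCr8), 5′ to 3′ on the gene's strand, and capitals mark runs of 5 or more pyrimidines.
Rps16: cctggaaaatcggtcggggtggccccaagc
Rps2: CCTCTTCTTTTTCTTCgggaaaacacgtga
Rpl39: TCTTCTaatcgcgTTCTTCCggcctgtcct
Rpl35a: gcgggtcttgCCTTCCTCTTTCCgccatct
Rpl3: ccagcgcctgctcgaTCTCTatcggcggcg
Rpl19: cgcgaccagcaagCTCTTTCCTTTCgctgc
Rplp0: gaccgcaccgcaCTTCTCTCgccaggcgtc
Rplp1: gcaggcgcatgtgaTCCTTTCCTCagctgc

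These lie at chr1:92770643-92770672 on the plus strand for Rps16, chr10:14251833-14251862 plus for Rps2, chrX:121195882-121195911 minus for Rpl39 and chr11:81235007-81235036 minus for Rpl35a. The other four are chr7:113507976-113508005 minus for Rpl3, chr10:83519049-83519078 plus for Rpl19, chr12:46718376-46718405 minus for Rplp0 and chr8:71290858-71290887 minus for Rplp1. Of 61 promoters found for 60 core genes, 23 (37.7%) have a C followed by at least 4 pyrimidines exactly at the annotated start, against 2.9% of 10825 promoters of tested genes and 2.63% of all 33469. The letters CTTTC occur on the gene's strand in the 30-base window of 26 core promoters (42.6%), against 3.55% of promoters of tested genes and 3.59% of all. On the other strand it occurs in 1 (1.64%), against 2.71% of promoters of tested genes and 3.82% of all. Over the full 300 bases, CCGGAAG, the core of ETS factor sites, is found on either strand of 32.8% of the core promoters, against 16.6% of promoters of tested genes and 8.75% of all. TATAAA is found in 9.84% of the core promoters, against 7.27% of those of tested genes and 14.2% of all. GGGCGG, the core of SP1 sites, is found in 59.0% of the core promoters, against 60.2% of those of tested genes and 33.1% of all. The pyrimidine start was searched on the gene's strand and the other motifs on both. CTTTC is itself a C with 4 pyrimidines, so those first counts overlap. A match in these letters is a description of the window only. In the sequences above the annotated start, the first base after 15, lies inside a pyrimidine run in each gene but Rps16, whose window holds no such run.

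The ribosomal protein genes as a group stood at nearly the same level in adPERK and control libraries. Together the 95 entries took 2.73%, 2.81% and 2.69% of all counts in adPERK replicates 1 to 3, against 2.83%, 2.72% and 2.70% in control replicates 1 to 3. The ranges overlap. The 40S core genes took 1.02% ± 0.0227 of counts in adPERK and 1.03% ± 0.0307 in control libraries (SD, n = 3 each, as for every ± below). The 60S core genes took 1.67% ± 0.0390 in adPERK and 1.68% ± 0.0374 in control libraries. Since these are bulk samples, a change in the amount of ribosomal protein mRNA that moves all RNA of the cell equally cannot be seen in such shares, and fewer cells of a kind and less RNA per cell cannot be told apart.

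Of the 95 entries, 92 passed the low-count filter, and all 75 core genes did. In edgeR's quasi-likelihood test over all 14488 tested entries, 1 of the 92 changed at an adjusted p under 0.05, which is 1.09% of them, against a background of 0.421% of all tested entries. That gene, Rps16, was higher in adPERK libraries, where the background of higher calls is 0.311%, and 0 members were lower, where the background is 0.110%. Among genes with a mean of at least 50 CPM, 1 of 72 core genes was called, against 46 of 3017 entries. At an unadjusted p under 0.05 there were 6 of 92 members (6.52%), against 11.2% of all tested entries and 18.1% of those with at least 50 CPM. The groups did not overlap for 7 members (7.61%), against 18.2% of all tested entries and 26.7% of those with at least 50 CPM. Of the 7 members, 5 were higher in adPERK libraries (background 9.66%) and 2 lower (background 8.55%). Rps16 was also the only member called with DESeq2, which called 2.72% of all tested entries, and with limma voom, which called 0.759%. The edgeR fits with library totals in place of TMM scaling and with the replicate number as a block called 0 members. Over all 14488 tested entries they called 33 and 9.

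Log2 fold changes (adPERK minus control) of the 92 members had a median of 8.8e-05, with 46 above 0 and 46 below, and that of all tested entries was -0.0045. The core 40S genes had a median of -0.0074 (13 above 0, 16 below) and the core 60S genes one of 0.0041 (24 above 0, 22 below). A log2 fold change within 0.1 of 0 was found for 63 of 75 core genes (84.0%), against 50.2% of all tested entries. Among genes with a mean of at least 50 CPM it was 87.5% of 72 core genes, against 76.0% of 3017 entries. The median standard error of a core gene was 0.04.

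**Figure D1:**
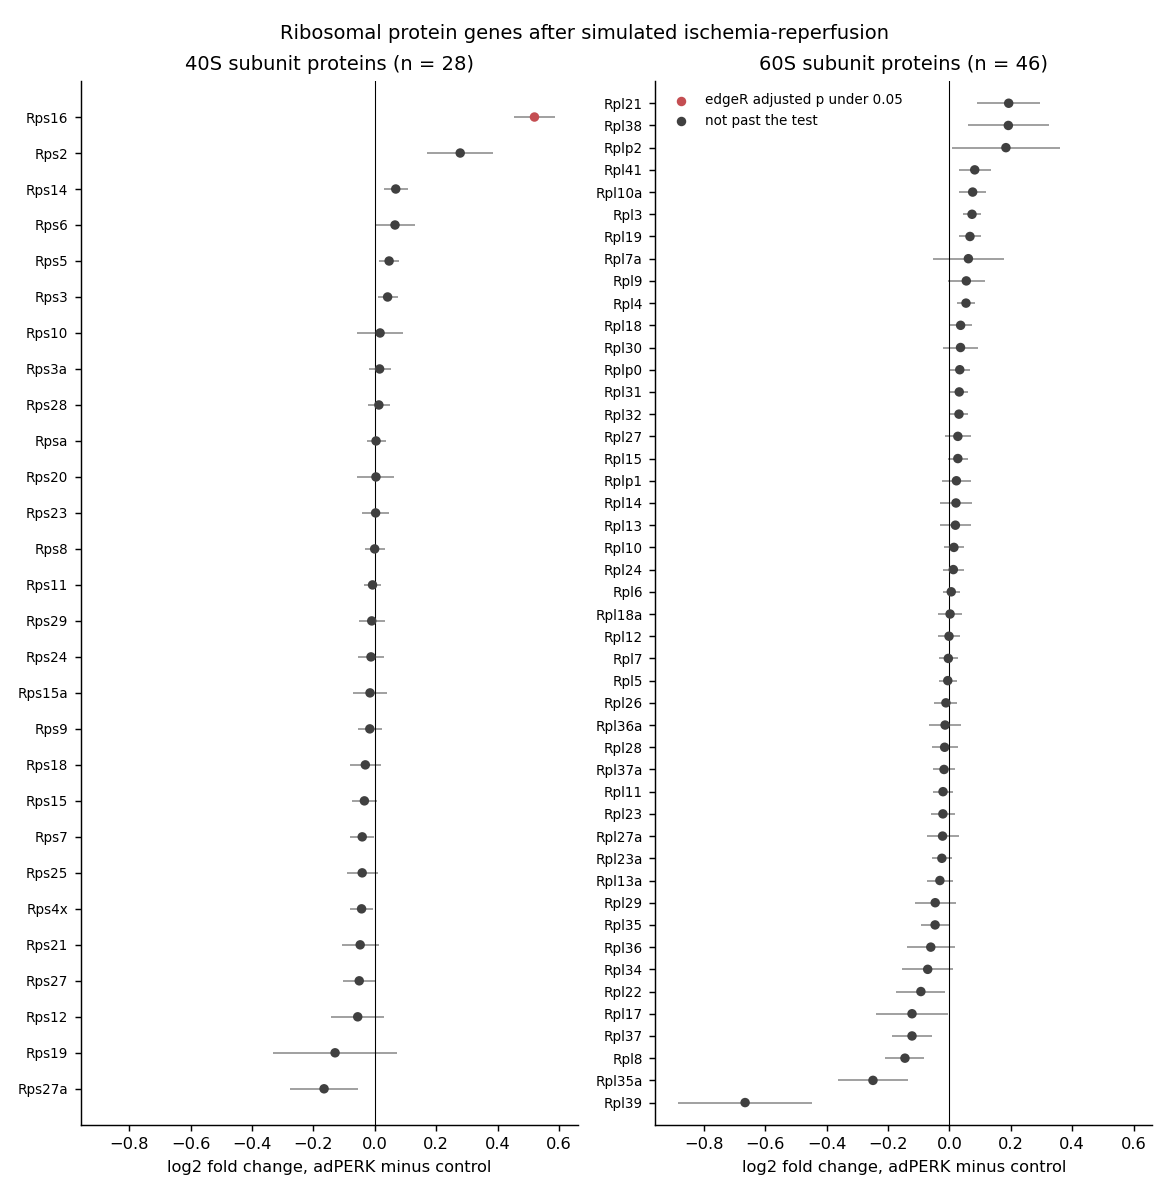
Log2 fold change (adPERK minus control) of core ribosomal protein genes, 40S on the left and 60S on the right, with bars of 1 standard error from edgeR. Rps16 at 0.52 is the 1 gene past the test, Rpl39 lies lowest at -0.67, and most of the others lie within 0.1 of 0.

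Rps16 encodes uS9, whose tail reaches the P-site tRNA in the 40S decoding centre. It stood at 143, 165 and 138 CPM in adPERK replicates 1 to 3, against 106, 105 and 100 CPM in control replicates 1 to 3. All 3 adPERK libraries lay above all 3 control libraries. This is a log2 fold change of 0.52 with an SE of 0.07 (edgeR adjusted p = 0.0228). The call was kept without adPERK replicate 2 (adjusted p = 0.0308) and lost without adPERK replicate 1 (0.074) or 3 (0.0512) and without control replicate 1 (0.0722), 2 (0.103) or 3 (0.105), while the value stayed between 0.44 and 0.57. In the authors' deposited table Rps16 has the same direction, 0.52, with a standard error of 0.464 and an adjusted p of 0.895. RefSeq names 10 further entries after Rps16, and 55 of the 75 core genes have 10 or more such entries. Their likeness to Rps16 was not computed. Whether reads are split among them was not tested, so the single-gene value is uncertain.

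Rps2 and Rps3 line the mRNA entry channel of the 40S subunit. Rps2 stood at 541, 605 and 723 CPM in adPERK replicates 1 to 3, against 575, 492 and 474 CPM in control replicates 1 to 3. These ranges overlap, since control replicate 1 lies above adPERK replicate 1 (log2 fold change 0.28, SE 0.11, edgeR adjusted p = 0.382). RefSeq names 36 further entries after Rps2. Rps3 was at 680 ± 13.1 CPM in adPERK and 660 ± 19.0 CPM in control libraries (SD, n = 3 each). Rpsa, the laminin receptor protein on the 40S surface, was at 864 ± 16.7 CPM in adPERK and 862 ± 12.0 CPM in control libraries, and its highest library was 1.04 times its lowest.

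Rps6, the substrate of the S6 kinases, stood at 279, 263 and 233 CPM in adPERK and at 254, 236 and 251 CPM in control replicates 1 to 3. These values overlap (log2 fold change 0.07, edgeR adjusted p = 0.758). Rps25, which some viral internal ribosome entry sites need, was at 90.8 ± 2.69 CPM in adPERK and 93.4 ± 4.50 CPM in control libraries. Rps24, which like Rps19 is mutated in Diamond-Blackfan anemia, had a log2 fold change of -0.01.

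Rps19 is needed to mature the 18S rRNA and is the gene most often mutated in that anemia. It stood at 276, 312 and 160 CPM in adPERK replicates 1 to 3, against 268, 270 and 280 CPM in control replicates 1 to 3. A single library, adPERK replicate 3, was low, and the other 5 lay between 268 and 312 CPM. The difference on the log2 scale was -0.13, with an SE of 0.20 and an edgeR adjusted p of 0.861. Rps27a, which is translated as a fusion with ubiquitin, stood at 356, 417 and 310 CPM in adPERK and 438, 356 and 421 CPM in control replicates 1 to 3, also overlapping. Fau, the ubiquitin-like fusion of eS30, which lies outside the name rule, ranged from 56.5 to 80.9 CPM in adPERK and from 47.2 to 85.8 CPM in control libraries.

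In the 60S subunit no gene passed the test at an adjusted p under 0.05 with edgeR, DESeq2 or limma voom. These tools called 0.421%, 2.72% and 0.759% of all tested entries, so few calls among 46 genes would match the background. An unadjusted edgeR p under 0.05 was found for 2 of 46, Rpl3 and Rpl39. This is 4.35%, against 11.2% of all tested entries and 18.1% of those with at least 50 CPM. Rpl39, a small protein of the exit tunnel, showed the largest difference of the core genes. It stood at 94.9, 90.7 and 93.4 CPM in adPERK replicates 1 to 3, against 179, 172 and 90.6 CPM in control replicates 1 to 3. Control replicates 1 and 2 stood apart, and control replicate 3 was level with the adPERK libraries. On the log2 scale the difference was -0.67, with an SE of 0.22 and an edgeR adjusted p of 0.295. Without control replicate 3 it was -0.92 with an adjusted p of 9.2e-04, and over the other 15 alternatives it lay between -0.68 and -0.50 with adjusted p of 0.191 to 0.542. The split runs within the control group, and what sets control replicate 3 apart within its group was not tested. RefSeq names 17 further entries after Rpl39.

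**Figure D2:**
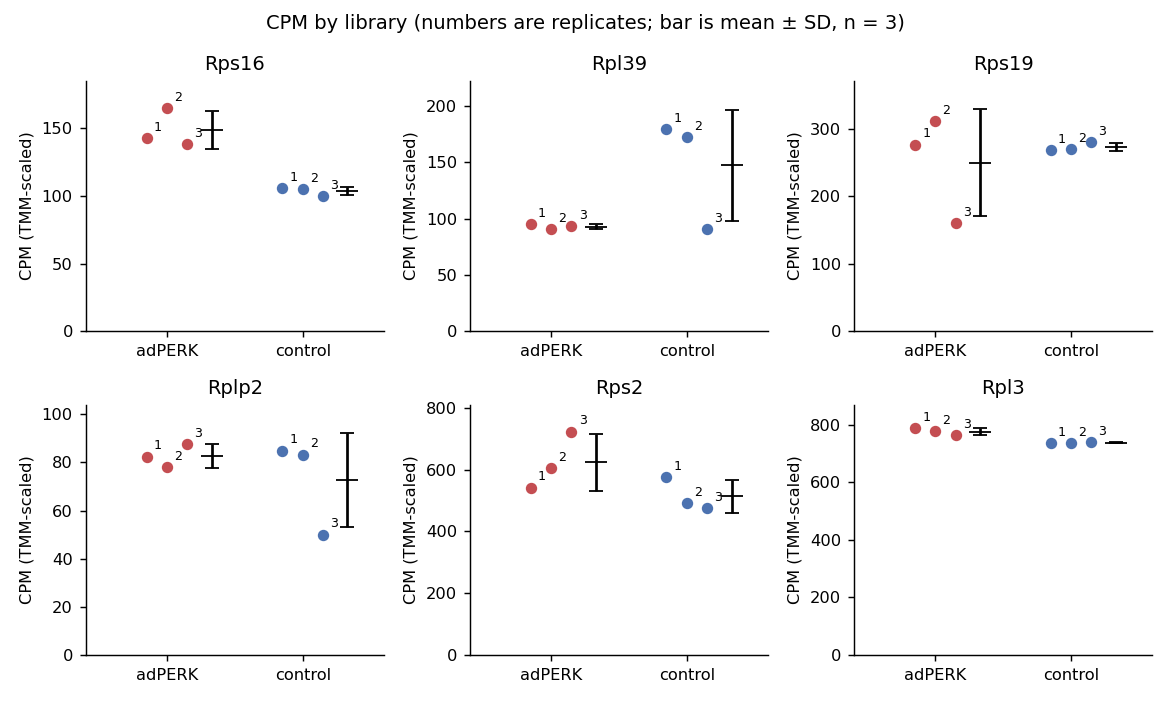
CPM (TMM-scaled) of 6 genes in each library, adPERK left and control right, with replicate numbers beside the points and the mean ± SD (n = 3) beside each group. Rps16 and Rpl3 have groups that do not overlap. Control replicates 1 and 2 stand apart in Rpl39, adPERK replicate 3 in Rps19 and control replicate 3 in Rplp2.

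Rpl3, which lies near the peptidyl transferase centre, showed a small and even difference. It stood at 787, 778 and 764 CPM in adPERK replicates 1 to 3, against 736, 737 and 740 CPM in control replicates 1 to 3. The groups do not overlap, and the difference was 0.07 on the log2 scale, with an SE of 0.03 and an edgeR adjusted p of 0.373. In the authors' deposited table Rpl3 is the 1 member of 93 with an adjusted p under 0.05 (0.0498, log2 fold change 0.08). The share of all entries that the authors' values put under 0.05 was not counted here. Rpl4, which forms part of the exit tunnel wall, was at 835, 847 and 836 CPM in adPERK and 828, 792 and 805 CPM in control replicates 1 to 3, again without overlap (log2 fold change 0.05, edgeR adjusted p = 0.549). Rpl37, with 21.6 ± 1.45 CPM in adPERK and 23.5 ± 0.471 CPM in control libraries, was the third 60S gene whose groups did not overlap, and the only one of the 3 that was lower in adPERK libraries. These 3 are 6.52% of the 60S genes, against 18.2% of all tested entries and 26.7% of those with at least 50 CPM.

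The acidic stalk, which recruits and activates the elongation factors, is built of Rplp0, Rplp1 and Rplp2. Rplp0 stood at 1593, 1668 and 1645 CPM in adPERK and 1634, 1582 and 1577 CPM in control replicates 1 to 3, the most counts of any member, not divided by length. Rplp1 was at 606 ± 23.4 CPM in adPERK and 596 ± 35.1 CPM in control libraries. Rplp2 stood at 82.4, 77.9 and 87.6 CPM in adPERK replicates 1 to 3, against 84.9, 83.2 and 49.99 CPM in control replicates 1 to 3. Control replicate 3 was low, and the other 5 libraries lay within 77.9 to 87.6 CPM (log2 fold change 0.18, SE 0.18, edgeR adjusted p = 0.757).

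Rpl5 and Rpl11 form a particle with the 5S rRNA that binds MDM2 when ribosome assembly fails. Rpl5 was at 488 ± 12.8 CPM in adPERK and 489 ± 2.33 CPM in control libraries, and Rpl11 at 287 ± 7.57 CPM in adPERK and 291 ± 6.81 CPM in control libraries. Rpl23, another MDM2-binding protein, had a log2 fold change of -0.02. None of the 3 passed the test. Rpl10, which is among the last to join the subunit, was at 601 ± 14.8 CPM in adPERK and 595 ± 17.8 CPM in control libraries, and Rpl13a, which is released from the ribosome in the interferon-gamma response of human cells, was at 526 ± 18.05 CPM in adPERK and 537 ± 24.9 CPM in control libraries.

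Other 60S genes at the ends of the range had overlapping groups. Rpl21 stood at 138, 129 and 101 CPM in adPERK and at 107, 107 and 109 CPM in control replicates 1 to 3 (log2 fold change 0.19, edgeR adjusted p = 0.523). Rpl38, known in mice for its part in the translation of Hox mRNAs, was at 8.01 ± 1.07 CPM in adPERK and 7.01 ± 0.697 CPM in control libraries. Rpl8 was at 73.0 ± 2.95 CPM in adPERK and 80.7 ± 6.12 CPM in control libraries (log2 fold change -0.14, edgeR adjusted p = 0.45), and Rpl17, which lines the exit tunnel, at 78.7 ± 8.85 CPM in adPERK and 85.6 ± 13.3 CPM in control libraries. Rpl41, a very short protein, was at 1218 ± 12.7 CPM in adPERK and 1150 ± 86.4 CPM in control libraries. Rpl6 was at 684 ± 9.21 CPM in adPERK and 681 ± 7.81 CPM in control libraries, and had the smallest spread of the core genes over the 6 libraries.

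Rpl35a, a further anemia gene, and its numbered copy Rpl35al1 followed one another across the libraries. Rpl35a stood at 43.7, 31.8 and 32.2 CPM in adPERK replicates 1 to 3, against 44.2, 42.3 and 41.4 CPM in control replicates 1 to 3. Rpl35al1 stood at 25.1, 17.9 and 19.8 CPM in the adPERK and 25.5, 24.997 and 25.8 CPM in the control replicates. In both, adPERK replicates 2 and 3 were low and adPERK replicate 1 was level with the control libraries (log2 fold changes -0.25 and -0.28, edgeR adjusted p = 0.466 and 0.397). Whether the authors' counting splits reads between gene and copy was not tested. The copy Rpl5l1 likewise had adPERK replicate 1 above adPERK replicates 2 and 3, with 25.1, 18.6 and 15.4 CPM in adPERK against 24.2, 23.3 and 23.4 CPM in control replicates 1 to 3, while Rpl5 itself did not. Of the 11 numbered copies 10 were tested, and 0 changed with edgeR, DESeq2 or limma voom. The backgrounds of these tools are 0.421%, 2.72% and 0.759% of all tested entries. Only Rpl35al1 had an unadjusted edgeR p under 0.05 (10.0% of the 10, against 11.2% of all tested entries). Rpl22l2, at 2.81, 1.76 and 2.00 CPM in adPERK and 1.69, 1.52 and 1.51 CPM in control replicates 1 to 3, and Rps18l1, at 18.4, 19.2 and 19.8 CPM in adPERK and 23.5, 19.9 and 20.3 CPM in control replicates 1 to 3, were the copies whose groups did not overlap. They are 20.0% of the tested copies, against 18.2% of all tested entries.

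Some paralogs of core genes are tissue-restricted. Rpl3l, the striated muscle form of Rpl3, had at most 0.205 CPM in any library. Rpl10l and Rps4y2 were at most 0.15 CPM in any library and were not tested, and neither was the copy Rpl31l3. Rpl39l was at 0.907 ± 0.347 CPM in adPERK and 1.13 ± 0.226 CPM in control libraries. Rps27l, a p53 target in human cells, stood at 107, 104 and 106 CPM in adPERK against 101, 96.6 and 99.3 CPM in control replicates 1 to 3. Its groups do not overlap, but it did not pass the test (log2 fold change 0.10, SE 0.04, edgeR adjusted p = 0.407). Rpl22l1, Rpl36al and Rpl7l1 had log2 fold changes of 0.07, 0.16 and 0.00 with overlapping groups. Rps19bp1, the binding protein, was at 40.8 ± 2.44 CPM in adPERK and 39.7 ± 1.803 CPM in control libraries.

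**Figure D3:**
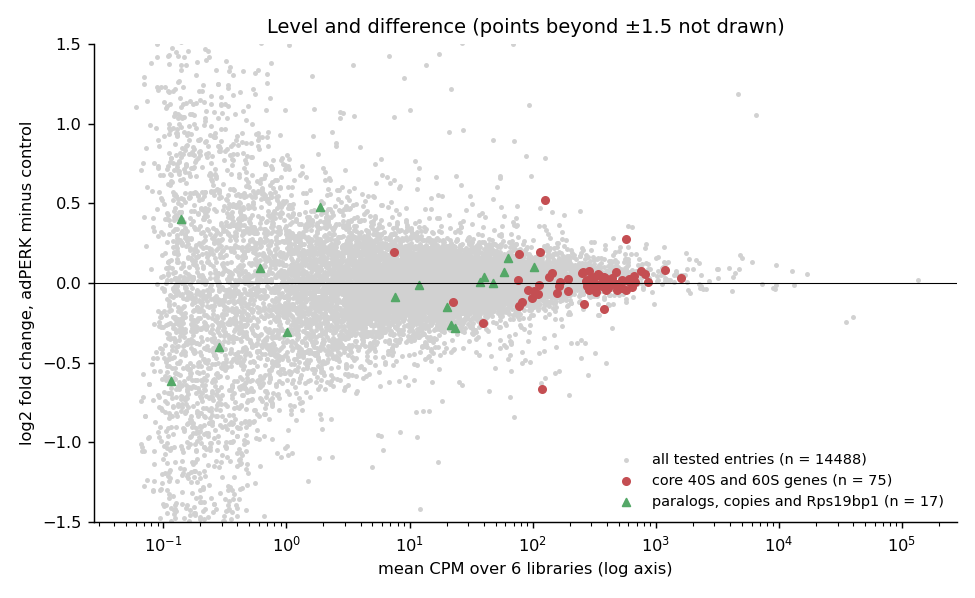
Mean CPM over the 6 libraries (log axis) against log2 fold change (adPERK minus control) for 14488 tested entries in grey, with 75 core genes as red points and 17 paralogs, copies and Rps19bp1 as green triangles. Core genes lie between 7.51 and 1616 CPM, and 63 of the 75 lie within 0.1 of 0.

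The core genes had a median within-group SD of 0.06 in log2 CPM, against a median absolute log2 fold change of 0.03 between the groups, and in single libraries most of them lay on the same side of their means. Set against each gene's own mean over the 6 libraries, 54, 52 and 20 of 75 core genes were high in adPERK replicates 1 to 3, against 67, 13 and 21 of 75 in control replicates 1 to 3. The median deviation was 0.03, 0.03 and -0.04 on the log2 scale in adPERK replicates 1 to 3, against 0.04, -0.04 and -0.02 in control replicates 1 to 3. Each group thus holds libraries on either side of 0, and the 3 libraries above 0 are those with the largest total counts (100816534 to 119087414), so depth and these levels moved together and the part of depth was not tested. Over 3016 entries with at least 50 CPM and no library at 0 the same medians ran from -0.02 to 0.01. They were 0.014, 0.0095 and 0.0074 in adPERK replicates 1 to 3 and -0.0053, -0.0072 and -0.016 in control replicates 1 to 3. Above their own means were 59.2%, 56.9% and 54.7% of these entries in adPERK and 46.9%, 44.7% and 38.7% in control replicates 1 to 3.

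**Figure D4:**
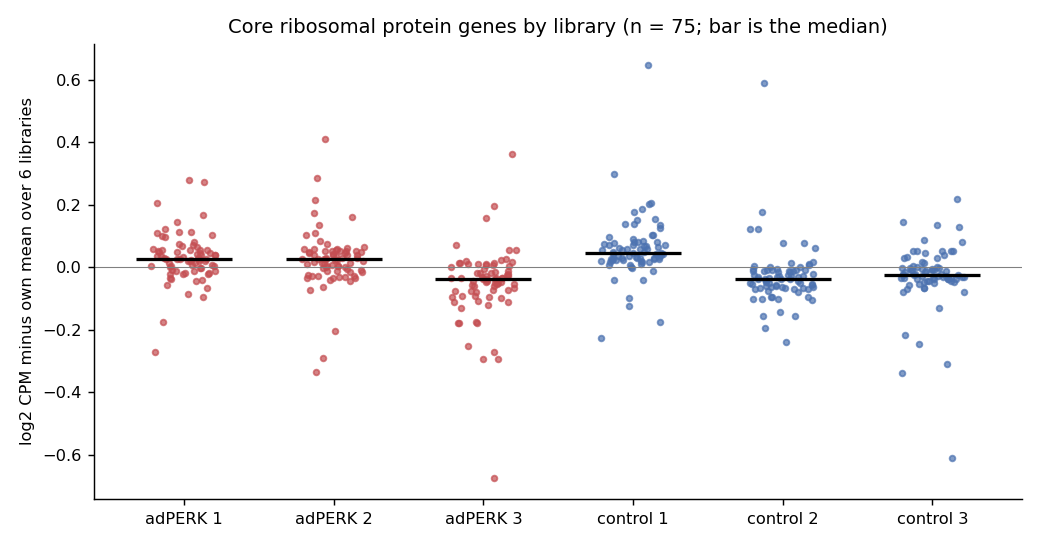
Deviation of log2 CPM from each gene's mean over 6 libraries for 75 core genes, 1 point per gene and library, with the median as a bar. The medians are above 0 in adPERK replicates 1 and 2 and control replicate 1, and below 0 in the other 3 libraries.

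The highest library was less than 1.2 times the lowest for 58 of 75 core genes (77.3%), against 82.7% of 3017 entries with at least 50 CPM, and the median ratio was 1.11, against 1.12 for those entries. A ratio of 1.4 or more was found for 8 core genes (10.7%), against 3.78% of those entries. The 8 were Rpl39 (1.98), Rps19 (1.95), Rplp2 (1.75), Rps16 (1.65), Rps2 (1.52), Rpl17 (1.47), Rps27a (1.41) and Rpl38 (1.41), and Rpl35a lay just under with 1.39. The 50 CPM cut was not applied to the core genes, of which 72 reach it. Among the 8 only Rpl38, with a mean of 7.51 CPM, lay below it. Control replicate 3 was the low control library in both Rpl39 and Rplp2, and in Rps19 the low library was adPERK replicate 3. By smaller margins, control replicate 3 was also the lowest control library in Rps16, Rps2, Rpl17 and Rpl38. In Rps19 the lowest control library was replicate 1 and in Rps27a replicate 2. The number of RefSeq entries named after a core gene ran from 1 to 36, and across the 75 genes it had a Spearman rho of 0.05 with the within-group SD of log2 CPM. The mean CPM had a rho of -0.59 with that SD. The number of named entries had a rho of -0.09 with the size of the log2 fold change. These points share libraries and scaling, and genes are not independent replicates. The table also holds 14 entries whose names mark them as ribosomal protein pseudogenes, of which 8 were tested. Rpl6-ps1, with the most counts of these, had 79583 over the 6 libraries and a log2 fold change of 0.06 (edgeR adjusted p = 0.681).

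Genes that act on or beside the ribosomal proteins were taken as 3 lists. Of 17 tested other mRNAs with a TOP start, 0 changed with edgeR, DESeq2 or limma voom. These 3 tools called 0.421%, 2.72% and 0.759% of all tested entries. An unadjusted edgeR p under 0.05 was found for 1 (5.88%, against 11.2% of all tested entries). Groups did not overlap for 4 (23.5%, all higher in adPERK libraries), against 18.2% of all tested entries. Among entries with at least 50 CPM the shares were 18.1% for that p and 26.7% for no overlap. Of the 17, 11 were above 0, with a median of 0.04. Eef1a1, the elongation factor that brings tRNAs, was at 4314 ± 79.9 CPM in adPERK and 4195 ± 68.5 CPM in control libraries. Eef2, the factor that moves the ribosome along the mRNA, was at 3258 ± 40.9 CPM in adPERK and 3064 ± 93.4 CPM in control libraries (log2 fold change 0.09, edgeR adjusted p = 0.341). Of 16 tested genes of mTORC1 and TOP control, 0 changed with any of the 3 tools. Only Eif4ebp1 had an unadjusted edgeR p under 0.05 (6.25% of the 16, against 11.2% of all tested entries). Eif4ebp1, which keeps eIF4G from eIF4E and so represses cap-dependent translation, was at 89.0 ± 2.64 CPM in adPERK and 79.3 ± 4.66 CPM in control libraries. Larp1, the TOP binding protein, had a log2 fold change of -0.02 and Rheb, the activator of mTORC1, one of 0.03.

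Ribosome biogenesis genes lay mostly above 0. Of 41 tested, 35 were above 0 (85.4%) and 6 below, against 48.7% above 0 of all tested entries and 59.9% of the 3017 entries with at least 50 CPM. Their median log2 fold change was 0.09, against -0.0045 over all tested entries, 0.019 over the 3017 entries and -4.6e-04 over the core genes. With edgeR 0 of the 41 passed an adjusted p of 0.05, against 0.421% of all tested entries. An unadjusted edgeR p under 0.05 was found for 8 (19.5%, against 11.2% of all tested entries and 18.1% of those with at least 50 CPM). DESeq2 called 2 of the 41, Ncl and Wdr43, against 2.72% of all tested entries. With limma voom 0 were called, against 0.759% of all tested entries. Ncl, the nucleolar protein nucleolin, stood at 279, 280 and 275 CPM in adPERK replicates 1 to 3, against 257, 256 and 255 CPM in control replicates 1 to 3 (log2 fold change 0.12, SE 0.03, edgeR adjusted p = 0.156). Wdr43, a factor of small subunit assembly chosen after its values were seen, was at 67.1 ± 2.72 CPM in adPERK and 58.96 ± 1.26 CPM in control libraries (edgeR adjusted p = 0.194). The groups did not overlap for either, and for 13 of the 41 in all (31.7%, against 18.2% of all tested entries and 26.7% of those with at least 50 CPM). Of the 13, 12 were higher and 1 lower, with backgrounds of 9.66% and 8.55% of all tested entries. Among entries with at least 50 CPM, 570 of 3017 were higher without overlap and 236 lower. The exception below 0 without overlap was Lsg1, a late 60S factor, at 23.6 ± 0.890 CPM in adPERK and 26.8 ± 0.352 CPM in control libraries (edgeR adjusted p = 0.205). Xpo1, which exports the subunits, was at 195 ± 3.24 CPM in adPERK and 199 ± 5.20 CPM in control libraries. Nhp2 was not tested, since its 1907 counts lay in adPERK replicate 3 and the other 5 libraries had 0. With 1 library left out, 32 to 38 of the 41 were above 0. Those fits share most of their libraries, and the genes share libraries and scaling, so these counts are not independent support.

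**Figure D5:**
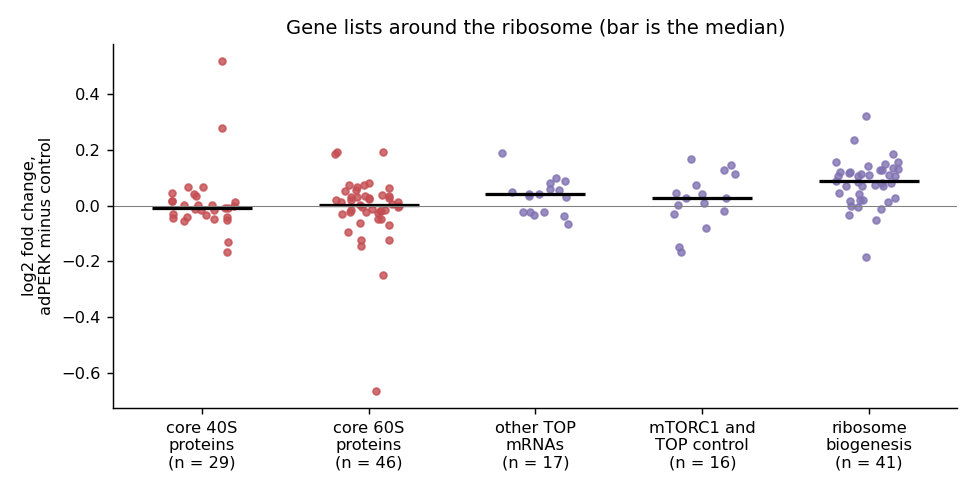
Log2 fold change (adPERK minus control) of each tested gene of the core 40S and 60S proteins and of 3 lists around the ribosome, with the median as a bar. The ribosome biogenesis genes have a median of 0.09 and the core proteins medians of -0.0074 and 0.0041.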

How the data were processed

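RNA-seq counts of 6 libraries were used as deposited: whole-number counts per entry, from which the authors also deposited a normalized signal (each library's counts divided by 1 factor, as tested on the file, not used in any test), log2 fold changes, their standard errors and a test score, and p-values with adjusted p-values. Bowtie 0.12.2 and the build mm9 are listed, per the submitters' processing notes, while the entries carry rat symbols. For the counting program, its strand setting and its treatment of several matches, the sources used here give nothing. Left out were 6 columns of a further table, whose headings correspond to no label.

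Counts were filtered with filterByExpr (minimum count 10), scaled by TMM and tested in edgeR 4.0.16 (R 4.3.3) with a quasi-likelihood fit over all 14488 remaining entries, group as the only term, Benjamini-Hochberg adjustment at 0.05. CPM uses TMM-scaled totals. The standard error is the absolute log2 fold change over the square root of F. DESeq2 1.42.0, limma 3.58.1 voom, other scalings and filters, a replicate block and leaving out each library were alternatives. The fit was tested on simulated data.

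Members and lists were chosen with earlier results of these data known. Named genes are called members, the 5 highest and 5 lowest core genes by fold change, the 6 with the most counts, members with textbook roles, paralogs, and the 2 most abundant genes of each other list. Other names were chosen after their values were seen. RefSeq (GRCr8) holds 90 of the 95 symbols and promoters for 71. Its copies were counted by symbol (name with -ps or l and a number). A few genes are not reported here by name and are left out of the plot of single core genes.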

Additional observations from a re-analysis of the deposited data

How the results depend on the processing

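The 61 calls over all entries became 33 with library totals without TMM factors, 94 without a low-count filter, 394 with DESeq2, 110 with limma voom, 132 with robust estimation and 93 with counts divided by 6, the last chosen after seeing the data. Leaving out 1 library gave 12 to 38 calls. The 1 called member, Rps16, was also called under the other scalings, filters and tools, but 0 members were called with library totals alone (Rps16 adjusted p = 0.0503). With 1 library left out 0 or 1 members were called, the 1 being Rps16 without adPERK replicate 2 and Rpl39 without control replicate 3. The cause of these moves was not tested, beyond the fewer libraries in such fits. With the replicate number as a block there were 9 calls over all entries and 0 among members (Rps16 adjusted p = 0.0691). Over all tested entries, same-numbered libraries did not deviate together (r = -0.04, 0.0023 and 0.02 for replicates 1 to 3). With 3 libraries per group these values cannot decide whether the numbers pair the libraries, and r was not computed for the members alone. Of 75 core genes, 54, 52 and 20 were above their own means in adPERK replicates 1 to 3, against 67, 13 and 21 in control replicates 1 to 3.

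The median log2 fold change of members stayed within 0.039, the SD of the libraries' medians, in all 16 alternatives, and ran from -0.017 to 0.021. The summed share of counts differed by -0.0075 percentage points (adPERK minus control), by 0.024 with TMM-scaled totals, by -0.083 with totals that leave out the members and the 10 most abundant entries, and by -0.042 to 0.032 with 1 library left out, so its sign is not settled. Of 1465 recomputed member values, 1430 kept the call or moved by less than 1 SE, and 27 moved by more without a call. A further 7 became weaker and 1 stronger. The log2 fold change of 49 of the 92 members changed sign under some alternative, so the directions of many members are not settled. Members under 1 CPM rest on few counts, and counts cover counting error only.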
